A study of Mus musculus with 15 samples.

Results

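The genes described here are 37 genes of fatty acid uptake and mitochondrial beta-oxidation, taken by gene symbol from the deposited tables of 15258 genes. They were sorted by the step at which their products act: 7 in uptake, 4 in activation and thioester cleavage, 5 in the carnitine shuttle, 14 in the beta-oxidation spiral, 4 in electron transfer and uncoupling, and 3 in lipid stores. All 37 had a row in the tables, and 36 held enough reads to be tested. The samples were left ventricles of male C57BL/6NRj mice, profiled with BRB-seq, in which every RNA sample gets its own barcode before pooling and only transcript 3′ ends are sequenced. Some mice had sham surgery and others transverse aortic constriction (TAC), an operation that narrows the aorta and loads the left ventricle with pressure. A minipump delivered saline or NRG1 (neuregulin-1, a growth factor that acts through the ERBB3 and ERBB4 receptors). The 3 groups, of 5 libraries each, are called sham saline, TAC saline and TAC NRG after the operation and the content of the pump. No sham group with NRG1 was analysed here, so the comparison of TAC NRG with TAC saline is within constricted hearts. The sources used here do not give age, dose or time after surgery. Whether the 5 libraries of a group are 5 mice is not stated in the labels, so p-values measure only the spread between these samples, which may be technical. The labels name the tissue as left ventricle, so each level is a sum over all cell types of the ventricle wall.

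The adult heart draws much of its energy from long-chain fatty acids. Lipoprotein lipase frees them from circulating lipoproteins, transporters and binding proteins carry them into the cell, acyl-CoA synthetases activate them, and the carnitine shuttle moves them into mitochondria. There the spiral removes acetyl-CoA by repeated dehydrogenation, hydration, a further dehydrogenation and thiolysis, and the electrons of the first step pass through electron transfer flavoprotein into the respiratory chain. Many of these genes are known targets of PPAR alpha, a nuclear receptor that binds DNA with a retinoid X receptor partner and is activated by fatty acids, and of estrogen-related receptors with the coactivator PGC-1 alpha. Lower levels of fatty acid oxidation genes are a textbook feature of the pressure-loaded heart.

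Promoters were taken from RefSeq on GRCm38.p6, as 300 bases from 250 before to 50 after each start, and 28 of the 37 genes matched the table with 33 promoters. The sequence that PPAR alpha and its partner are known to bind is a direct repeat of AGGTCA spaced by 1 base, and it was searched on both strands. An exact repeat was found in 0 of the 33 promoters and in 13 of all 32851 promoters (0.0396%). With up to 2 mismatches it was found in 4 of the 33 (12.1%) and in 1268 of all promoters (3.86%). The motif TNAAGGTCA, a form bound by estrogen-related receptors that contains the same AGGTCA, was found in 0 of the 33 and in 421 of all promoters (1.28%). These shares describe letters in a short window and say nothing of binding. The 4 promoters with a match are shown because they belong to a transporter, a spiral enzyme, an electron carrier and an uncoupling protein whose levels are given further on. The sequences are the 150 bases before the start, 5′ to 3′ on the gene's strand, with the matched bases in capitals. They lie at chr5:17835897-17836046 (Cd36, minus strand), chr7:100472841-100472990 (Ucp3, plus strand), chr7:140116422-140116571 (Echs1, minus strand) and chr9:55512244-55512393 (Etfa, minus strand).
Cd36: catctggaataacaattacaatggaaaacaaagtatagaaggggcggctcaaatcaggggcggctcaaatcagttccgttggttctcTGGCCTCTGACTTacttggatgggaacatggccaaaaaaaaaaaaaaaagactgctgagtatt
Ucp3: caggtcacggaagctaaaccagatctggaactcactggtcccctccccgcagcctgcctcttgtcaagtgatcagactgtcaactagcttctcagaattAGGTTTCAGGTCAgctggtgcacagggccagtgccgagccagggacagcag
Echs1: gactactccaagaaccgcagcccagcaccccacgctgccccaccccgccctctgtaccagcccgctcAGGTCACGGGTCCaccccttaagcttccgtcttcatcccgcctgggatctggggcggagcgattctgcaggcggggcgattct
Etfa: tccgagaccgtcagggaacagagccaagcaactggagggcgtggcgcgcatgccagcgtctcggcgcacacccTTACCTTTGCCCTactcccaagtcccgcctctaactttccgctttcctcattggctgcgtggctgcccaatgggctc
The match began 63 bases before the start in Cd36, 51 in Ucp3, 83 in Echs1 and 77 in Etfa, and it read along the gene's strand in Ucp3 and Echs1 and along the opposite strand in Cd36 and Etfa.

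Libraries held 2.02 to 5.62 M reads, and TAC NRG libraries 4 and 5 were the shallowest. All levels are in CPM (2 to the power of the deposited value, divided by 1000), which keeps the authors' scaling and is not divided by transcript length, so they compare libraries and not genes. Transcripts of the mitochondrial genome made up 31.1% ± 0.47 of the reads of sham saline libraries, 27.7% ± 1.62 in TAC saline and 25.8% ± 2.35 in TAC NRG (SD, n = 5 each). Haemoglobin genes took 0.0888% to 0.221% of reads in sham saline, 0.107% to 0.161% in TAC saline and 0.189% to 0.366% in TAC NRG, highest in TAC NRG 4 and 5. When total reads replaced the authors' scaling, the all-gene median of TAC saline against sham saline shifted to 0.10 on the log2 scale, and the calls over all genes moved from 467 lower and 713 higher to 191 lower and 1078 higher. The same change gave 61 lower and 48 higher in place of 69 and 74 for TAC NRG against TAC saline, or 93 and 45 when mitochondrial genes were left out of the total. For TAC NRG against sham saline it gave 434 lower and 1364 higher in place of 814 and 963. The 37 genes took 1.97% to 2.15% of all reads in sham saline libraries, 1.83% to 1.95% in TAC saline and 1.82% to 1.94% in TAC NRG. Nppa, the atrial natriuretic peptide that loaded ventricles re-express, separated the labelled groups and stood at 197 ± 23.2 CPM in sham saline, 657 ± 202 in TAC saline and 1773 ± 475 in TAC NRG (SD, n = 5 each).

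Most genes of the oxidation pathway were modestly lower in constricted hearts with saline. In TAC saline against sham saline, 20 of 36 tested genes fell, 1 rose (Fabp5) and 15 did not pass the test, where 10.7% of all 11018 tested genes passed in either direction, 4.24% lower and 6.47% higher (limma, Benjamini-Hochberg adjusted p under 0.05). Falls ran from 0.23 to 0.64 on the log2 scale, so the largest, in Mlycd, left 64.3% of the sham level. The median over the 36 genes was -0.30, against -0.01 over all tested genes. Relative to the median of all genes it was -0.29, a value that a scaling by 1 factor per library cannot change. By step, 11 of 14 spiral genes fell, 3 of 4 of electron transfer, 3 of 4 tested of the carnitine shuttle and 2 of 3 of lipid stores. Of 7 uptake genes 1 fell and 1 rose. Of 4 activation and thioesterase genes 0 passed at an adjusted p under 0.05 and 2 did at an unadjusted p under 0.05, with all 4 below 0 and a median of -0.20 (limma). Differences between the steps were not tested. In 13 of the 36 genes every TAC saline library lay below every sham saline library, a pattern seen in 3.68% of all tested genes. In tissue RNA, fewer cells of a type and less RNA per cell cannot be told apart.

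**Figure D1:**
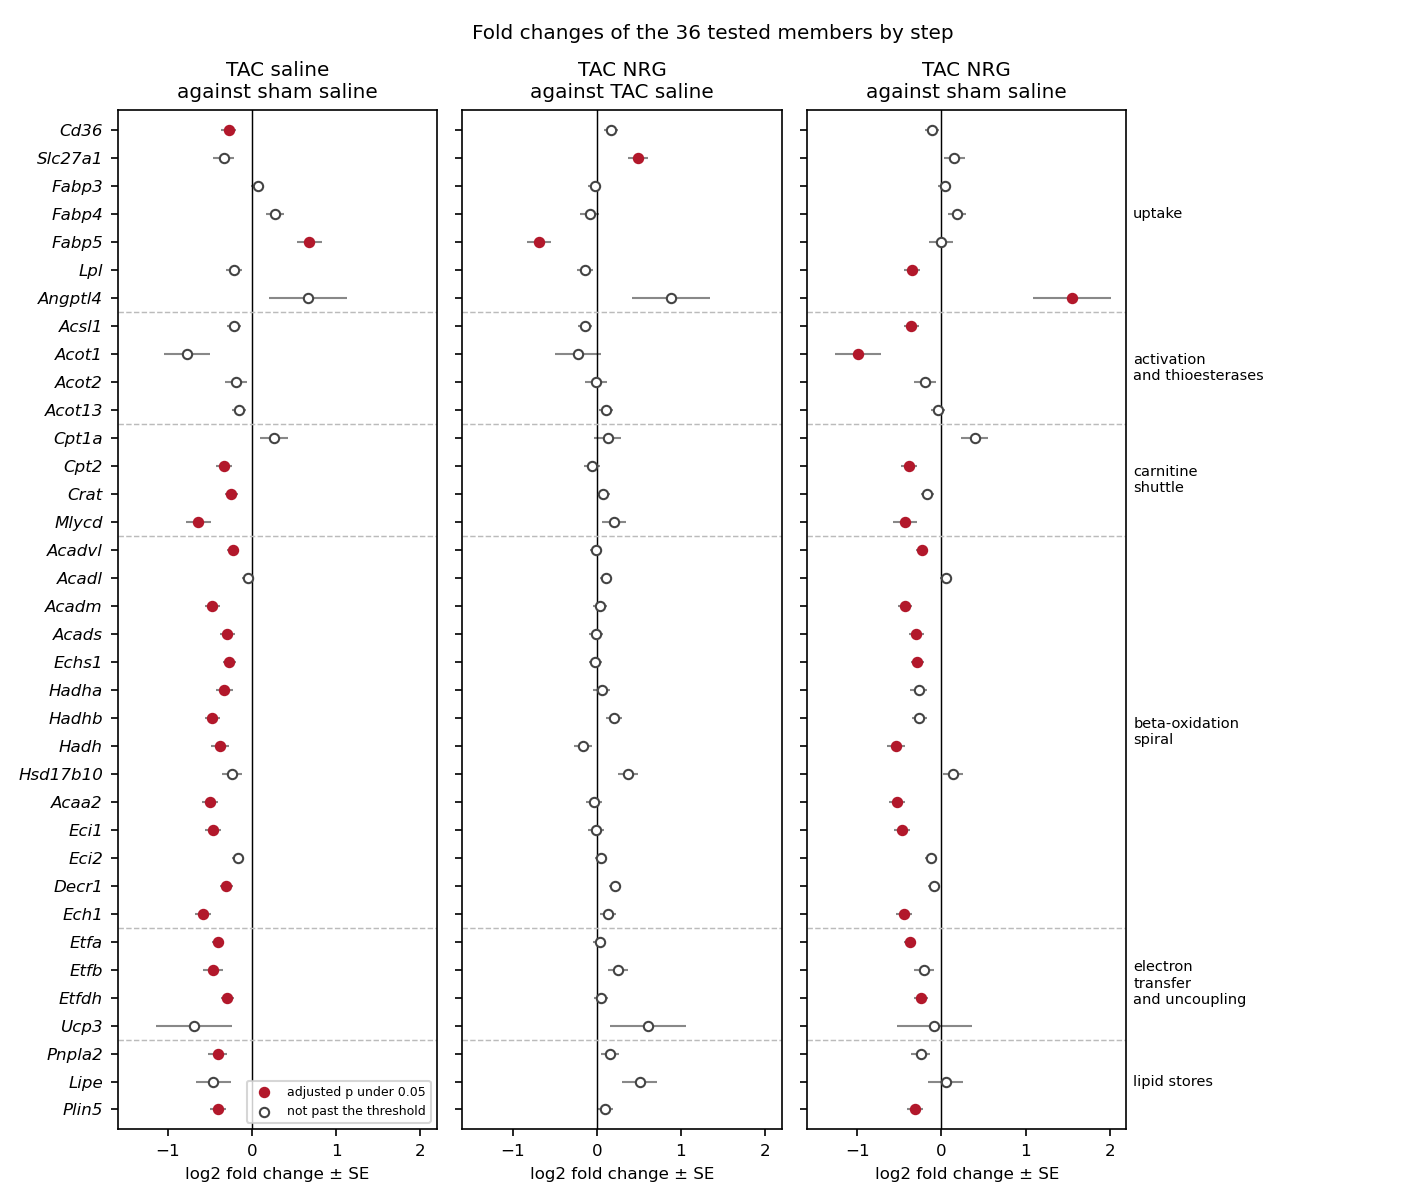
Log2 fold change with its standard error for the 36 tested genes, ordered by step from uptake at the top to lipid stores at the bottom, in the 3 comparisons; filled points passed an adjusted p of 0.05 and open points did not. In the left panel 20 filled points lie below 0 and 1 above, in the middle panel 1 lies on each side, and in the right panel 16 lie below and 1 above.

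The count of 20 depended on single libraries and on scaling. It was 11 without sham saline 2, 13 without sham saline 4, 11 without TAC saline 1 and 9 without TAC saline 5, and the calls over all genes fell from 1180 to 708 and 636 without the last 2 libraries. With total reads as the only scaling 11 fell and 2 rose (Fabp4 and Fabp5). Of 12 cardiomyocyte markers, 3 fell (Tnni3, Pln and Ryr2), 2 rose (Actc1 and Actn2) and 7 did not pass, with a median of -0.18 and a summed level of 87453 to 94179 CPM in sham saline, 78163 to 94094 in TAC saline and 77612 to 96155 in TAC NRG. When each library was centred on the median of those 12 markers, a setting chosen after the data were seen, the median of all genes became 0.23 and that of the 36 genes -0.06. In that setting 5 fell (Mlycd, Acadm, Hadhb, Acaa2 and Ech1) and 4 rose (Fabp3, Fabp4, Fabp5 and Cpt1a). The part of cardiomyocyte content in the falls was not tested beyond this. Calls of Fabp5, Mlycd, Acadm, Hadhb, Acaa2 and Ech1 held in all 25 alternatives, and those of Eci1, Decr1, Etfa and Plin5 in 24. Of these 25, 5 left out a TAC NRG library, which changes the estimated spread but not the fold change. The least stable falls were Crat, which held in 10 of 25, and Acadvl, which held in 12.

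**Figure D2:**
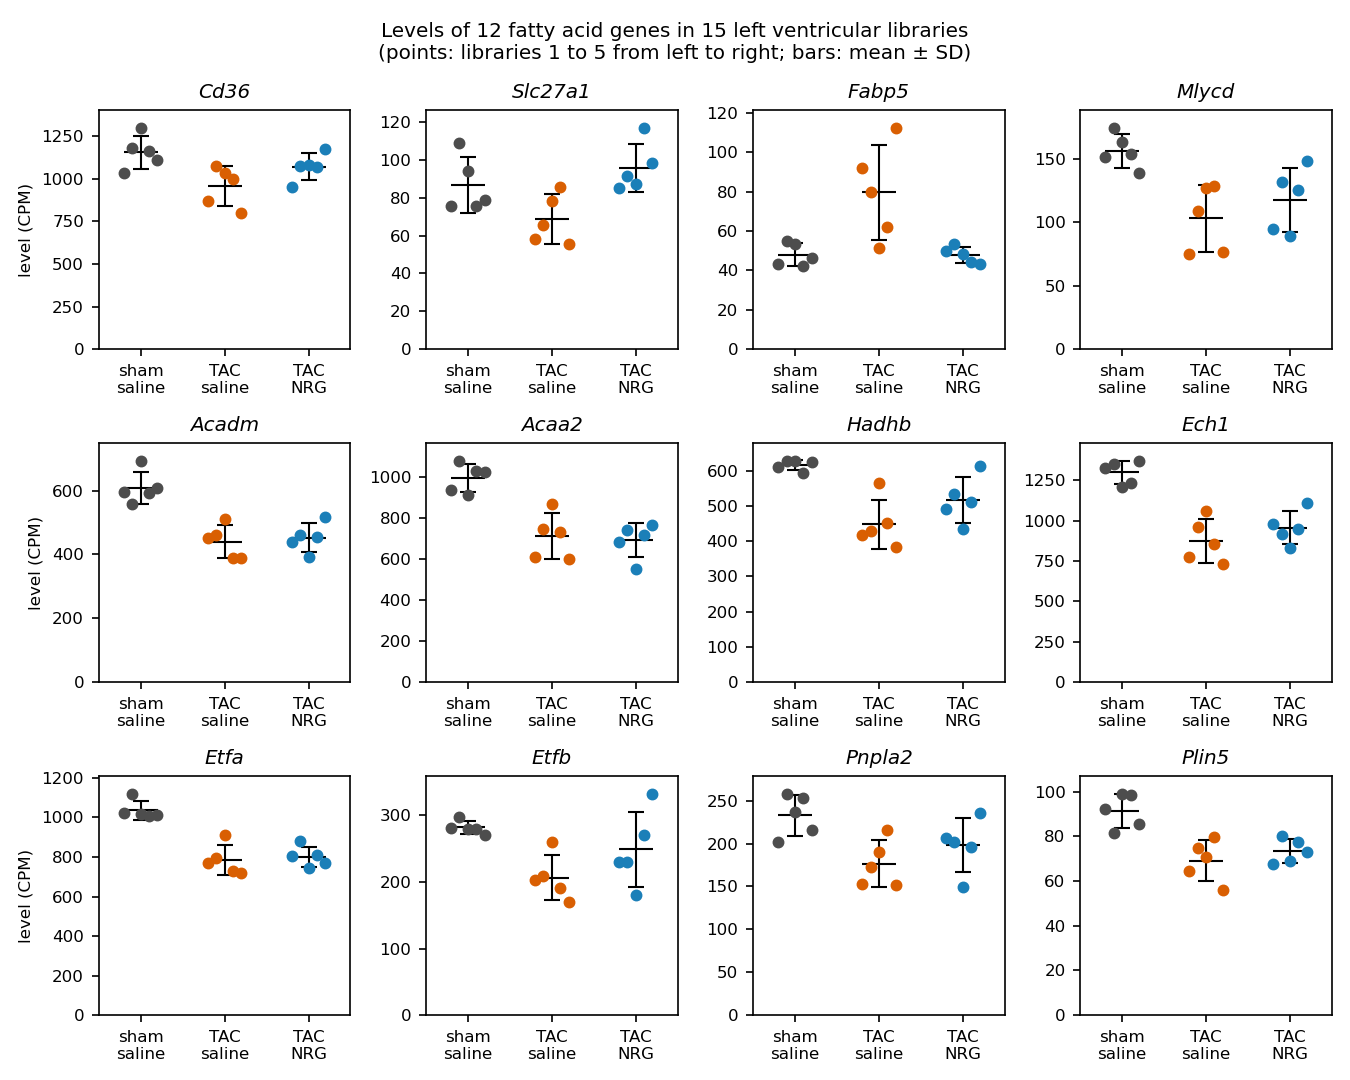
Level in CPM of 12 of the genes in each library (points, libraries 1 to 5 from left to right within a group) with the mean and SD of each group (n = 5). Sham saline lies above both TAC groups without overlap for Acadm, Acaa2, Ech1, Etfa and Plin5, while Fabp5 is highest in 4 of the TAC saline libraries.

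The spiral opens with acyl-CoA dehydrogenases of different chain length, and 3 of 4 of them fell in TAC saline. Acadm, the medium-chain enzyme, stood at 595, 559, 693, 593 and 608 CPM in sham saline libraries 1 to 5, 450.1, 461, 511, 390.1 and 389.9 CPM in TAC saline libraries 1 to 5, and 438, 461, 391, 456 and 516 CPM in TAC NRG libraries 1 to 5. Every library of both TAC groups lay below every sham library, and TAC saline 4 and 5 and TAC NRG 3 were the lowest. Acadm fell by 0.47 ± 0.09 (SE, adjusted p = 0.000846) in TAC saline and fell by 0.43 ± 0.09 (SE, adjusted p = 0.00107) in TAC NRG, both against sham saline (limma). Acadvl, the very-long-chain enzyme of the inner membrane, fell by 0.23 ± 0.07 (SE, adjusted p = 0.0407) and fell by 0.23 ± 0.07 (SE, adjusted p = 0.0258) in the same comparisons. Its sham libraries held 614 to 684 CPM and its TAC saline libraries 518 to 639, where TAC saline 3 alone lay within the sham range. Acads, the short-chain enzyme, fell by 0.29 ± 0.09 (SE, adjusted p = 0.0305) and fell by 0.30 ± 0.09 (SE, adjusted p = 0.0192), again with TAC saline 3 within the sham range. The TAC saline calls of Acadvl and Acads held in 12 and 16 of 25 alternatives. Acadl, the long-chain enzyme, did not follow the other 3. It held 1288 to 1524 CPM in sham saline, 1303 to 1364 in TAC saline and 1310.0 to 1527 in TAC NRG, with differences of -0.05 ± 0.07 (adjusted p = 0.723) and 0.06 ± 0.07 (adjusted p = 0.651) from sham.

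The middle steps are carried out by a short-chain hydratase, by the membrane-bound trifunctional protein and by soluble dehydrogenases. Hadhb, the thiolase subunit of the trifunctional protein, stood at 610.1, 627, 626, 592 and 625 CPM in sham saline, 416, 428, 564, 450.4 and 382 in TAC saline and 490.0, 532, 435, 511 and 613 in TAC NRG. Its TAC saline libraries all lay below sham, whereas TAC NRG 5 reached the sham range. Hadhb fell by 0.47 ± 0.09 (SE, adjusted p = 0.00164) in TAC saline against sham, and the difference of TAC NRG from sham was -0.26 ± 0.09 (adjusted p = 0.0513). Hadha, the other subunit, fell by 0.33 ± 0.10 (SE, adjusted p = 0.0347) in TAC saline, a call that held in 17 of 25 alternatives, with a TAC NRG difference from sham of -0.27 ± 0.10 (adjusted p = 0.0634). Its groups overlapped through sham saline 3, which at 464 CPM lay below TAC saline 2, 3 and 4 (468 to 526 CPM), while the other 4 sham libraries held 556 to 619 CPM. Hadh, the soluble 3-hydroxyacyl-CoA dehydrogenase of shorter chains, stood at 736, 824, 773, 810.2 and 755 CPM in sham saline, 584, 639.8, 712, 586 and 495 in TAC saline and 549, 636, 388, 556 and 579.6 in TAC NRG. It was below every sham library in all 10 TAC libraries and lowest in TAC NRG 3. Hadh fell by 0.38 ± 0.10 (SE, adjusted p = 0.0206) in TAC saline and fell by 0.54 ± 0.10 (SE, adjusted p = 0.000754) in TAC NRG, and the latter held in all 26 alternatives of that comparison. The difference between the TAC groups was -0.17 ± 0.10 (adjusted p = 0.47). Echs1, the short-chain enoyl-CoA hydratase whose promoter is shown above, fell by 0.27 ± 0.08 (SE, adjusted p = 0.0225) and fell by 0.29 ± 0.08 (SE, adjusted p = 0.0107) against sham in the same order. Hsd17b10, a dehydrogenase that also acts on branched-chain and steroid substrates and belongs to mitochondrial RNase P, showed differences from sham of -0.24 ± 0.12 (adjusted p = 0.206) in TAC saline and 0.14 ± 0.12 (adjusted p = 0.478) in TAC NRG.

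Acaa2, the mitochondrial thiolase that closes the spiral, stood at 936, 1076, 910.2, 1025 and 1020.0 CPM in sham saline, 607, 746, 868, 728 and 596 in TAC saline and 682, 738, 552, 714 and 766 in TAC NRG. All 10 TAC libraries lay below all 5 sham libraries. Acaa2 fell by 0.50 ± 0.10 (SE, adjusted p = 0.00174) in TAC saline and fell by 0.53 ± 0.10 (SE, adjusted p = 0.000484) in TAC NRG against sham (limma). These values left 70.8% and 69.2% of the sham level.

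Unsaturated fatty acids need auxiliary isomerases and a reductase before they can pass through the spiral, and 3 of these 4 genes fell in TAC saline. Ech1, a dienoyl-CoA isomerase, stood at 1322, 1352, 1209, 1235 and 1369 CPM in sham saline, 772, 959.8, 1057, 852 and 729 in TAC saline and 979.8, 916, 827, 950.4 and 1107 in TAC NRG. The lowest sham library lay above the highest library of either TAC group, and TAC saline 1 and 5 were the lowest of all. Ech1 fell by 0.58 ± 0.09 (SE, adjusted p = 0.000206) in TAC saline and fell by 0.45 ± 0.09 (SE, adjusted p = 0.0016) in TAC NRG, and its TAC saline value had the smallest adjusted p of the 36 genes. Eci1, an enoyl-CoA isomerase, stood at 297, 313, 305, 318 and 284 CPM in sham saline, 209, 226, 269, 209.6 and 195 in TAC saline and 229, 219, 169.5, 239.9 and 247 in TAC NRG, also without overlap between sham and TAC. Eci1 fell by 0.46 ± 0.09 (SE, adjusted p = 0.00253) and fell by 0.47 ± 0.09 (SE, adjusted p = 0.00121) in the same order. Decr1, the dienoyl-CoA reductase, stood at 322, 324, 339.9, 314 and 330.2 CPM in sham saline, 255, 273, 303, 246 and 248 in TAC saline and 306, 306, 278, 311 and 335 in TAC NRG. It was below sham in all 5 TAC saline libraries, while 1 TAC NRG library lay within the sham range. Decr1 fell by 0.30 ± 0.07 (SE, adjusted p = 0.00785) in TAC saline, and the TAC NRG difference from sham was -0.09 ± 0.07 (adjusted p = 0.467) and from TAC saline 0.22 ± 0.07 (adjusted p = 0.137). Eci2, an isomerase found in mitochondria and peroxisomes, held 234 to 275 CPM in sham saline and 207 to 229 in TAC saline. Its groups did not overlap, but the difference of -0.17 ± 0.07 (adjusted p = 0.136) did not pass. In the annotation, 9.76% of the 50-base stretches in the last 500 bases of Eci2 are shared with Eci3, which held 0 to 2 reads per library. Eci1 and Slc27a1 transcript ends hold short repeats that other genes share.

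Electrons of the first spiral step pass to electron transfer flavoprotein, a dimer of the Etfa and Etfb products, and from it to the Etfdh product, its ubiquinone oxidoreductase. All 3 genes fell in TAC saline. Etfa stood at 1022, 1120.0, 1020.0, 1008 and 1013 CPM in sham saline, 770.2, 796, 912, 729 and 716 in TAC saline and 806, 879, 742, 808 and 771 in TAC NRG. Sham saline 2 was the highest, and no TAC library reached the sham range. Etfa fell by 0.41 ± 0.07 (SE, adjusted p = 0.000873) in TAC saline and fell by 0.37 ± 0.07 (SE, adjusted p = 0.00104) in TAC NRG. Etfb stood at 281, 298, 279.9, 279 and 271 CPM in sham saline, 203, 209, 261, 191 and 170.1 in TAC saline and 230.4, 230.3, 181, 271 and 333 in TAC NRG. Every TAC saline library was below sham, but TAC NRG ranged from below the TAC saline median to above the highest sham library, with TAC NRG 3 lowest and TAC NRG 5 highest. Etfb fell by 0.46 ± 0.12 (SE, adjusted p = 0.0125) in TAC saline, and the difference of TAC NRG from sham was -0.21 ± 0.12 (adjusted p = 0.257). The last 500 bases of Etfb share 48.8% of their 50-base stretches with Gm45233, a gene absent from the deposited values. How reads shared by the 2 genes were counted is not given in the sources used here. Etfdh fell by 0.29 ± 0.08 (SE, adjusted p = 0.0218) in TAC saline and fell by 0.24 ± 0.08 (SE, adjusted p = 0.0459) in TAC NRG. The latter held in 10 of 26 alternatives. Ucp3, an uncoupling protein of muscle mitochondria, did not pass in any comparison and is described with the most variable genes.

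The carnitine shuttle transfers acyl groups from CoA to carnitine and back. Mlycd, malonyl-CoA decarboxylase, removes malonyl-CoA, the inhibitor of the first shuttle enzyme. It stood at 152, 174, 163, 154 and 138 CPM in sham saline, 75.0, 109, 127, 128 and 76.1 in TAC saline and 94.4, 132, 88.8, 125 and 148 in TAC NRG. All TAC saline libraries were below sham, with TAC saline 1 and 5 far below the other 3, and 1 TAC NRG library lay within the sham range. Mlycd fell by 0.64 ± 0.15 (SE, adjusted p = 0.00584) in TAC saline and fell by 0.43 ± 0.15 (SE, adjusted p = 0.0437) in TAC NRG. The TAC NRG call held in 16 of 26 alternatives. Cpt2, the carnitine palmitoyltransferase of the inner membrane, stood at 215, 278, 230.2, 277 and 261 CPM in sham saline, 183, 222, 201, 227 and 169.7 in TAC saline and 222, 198, 169.8, 179 and 194 in TAC NRG. Its low sham library 1 overlapped with the TAC groups. Cpt2 fell by 0.33 ± 0.09 (SE, adjusted p = 0.0245) and fell by 0.39 ± 0.09 (SE, adjusted p = 0.00603) in the same order. Crat, carnitine acetyltransferase, which handles short acyl groups, fell by 0.25 ± 0.08 (SE, adjusted p = 0.0453) in TAC saline. Its TAC NRG difference from sham was -0.17 ± 0.08 (adjusted p = 0.157). The first shuttle enzyme has a muscle form, Cpt1b, and a liver form, Cpt1a. Cpt1a held 19.7 to 28.9 CPM in sham saline, 20.3 to 39.1 in TAC saline and 25.9 to 35.99 in TAC NRG, with differences from sham of 0.26 ± 0.16 (adjusted p = 0.348) and 0.39 ± 0.16 (adjusted p = 0.102). Cpt1b, known as the main form of the heart, held 0 to 4 reads per library and was not tested. All 50-base stretches in its last 500 bases (100%) also belong to the annotated gene Gm44502, which is absent from the deposited values. How the counting treated reads shared by annotated genes is not given in the sources used here, so the Cpt1b level is not interpreted.

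The median of the uptake genes was 0.07 in TAC saline against sham, but 3 of the 7 were below 0 and 4 above. At an unadjusted p under 0.05 (limma) 5 of the 7 passed, against 2662 of all 11018 tested genes. Of these, Cd36, Slc27a1 and Lpl were lower and Fabp4 and Fabp5 higher. Cd36, the main sarcolemmal fatty acid transporter, stood at 1035, 1177, 1297, 1160.0 and 1107 CPM in sham saline, 867, 1077, 1034, 1000 and 798 in TAC saline and 949, 1075, 1079, 1069 and 1176 in TAC NRG. TAC saline 1 and 5 were the lowest, and the other 3 TAC saline libraries were close to or within the sham range. Cd36 fell by 0.28 ± 0.09 (SE, adjusted p = 0.0378) in TAC saline, a call that held in 16 of 25 alternatives, and the TAC NRG difference from sham was -0.11 ± 0.09 (adjusted p = 0.432). Lpl, lipoprotein lipase, stood at 3569, 3824, 4084, 4020.0 and 3323 CPM in sham saline, 3171, 3219, 3585, 3185 and 3040.0 in TAC saline and 3118, 3371, 3277, 2761 and 2330.0 in TAC NRG. TAC NRG 4 and 5 were the lowest libraries. Lpl fell by 0.35 ± 0.09 (SE, adjusted p = 0.0128) in TAC NRG against sham. Without TAC NRG 4 and 5 it was -0.21 (adjusted p = 0.138). The TAC saline difference was -0.21 ± 0.09 (adjusted p = 0.159). Fabp3, the heart fatty acid binding protein, varied little, from 2092 to 2553 CPM in sham saline and 2282 to 2482 in TAC saline to 2158 to 2565 in TAC NRG, with a difference of 0.07 ± 0.08 (adjusted p = 0.656) in TAC saline. Its transcript end shares 27.9% of 50-base stretches with the pseudogene Fabp3-ps1, which held 22 to 112 reads per library. Fabp4, the form of adipocytes and capillary endothelium, showed a difference from sham of 0.27 ± 0.11 (adjusted p = 0.118) in TAC saline.

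Fabp5, a binding protein expressed in endothelium and macrophages, was the only gene to rise past the threshold in TAC saline against sham. In that comparison 5 of the 36 genes were above 0, among them Angptl4 at 0.67 ± 0.46 (adjusted p = 0.416). Fabp5 stood at 43.5, 54.7, 53.4, 42.3 and 46.5 CPM in sham saline, 92.1, 80.1, 51.4, 62.2 and 112 in TAC saline and 49.9, 53.3, 48.5, 44.4 and 43.1 in TAC NRG. TAC saline 1, 2, 4 and 5 lay above every sham library and every TAC NRG library, and TAC saline 3 lay within the range of both. Fabp5 rose by 0.68 ± 0.15 (SE, adjusted p = 0.00363) in TAC saline against sham, 1.60-fold, and fell by 0.69 ± 0.15 (SE, adjusted p = 0.0163) in TAC NRG against TAC saline, while the difference between TAC NRG and sham was -0.00 ± 0.15 (adjusted p = 0.992). The second call was lost without TAC saline 1 (adjusted p = 0.0624), TAC saline 5 (0.0509), TAC NRG 4 (0.0566) or TAC NRG 4 and 5 together (0.149), and with only the 2 groups compared in the fit (0.0516). Endothelial markers summed to 768 to 843 CPM in sham saline, 818 to 960 in TAC saline and 745 to 801 in TAC NRG, and of 10 markers 0 passed in TAC saline against sham and 1, Cdh5, fell in TAC NRG against TAC saline. Macrophage markers summed to 507 to 802, 578 to 1052 and 489 to 871 CPM, and 6 of 10 rose in TAC saline. In TAC NRG against TAC saline 0 macrophage markers passed. There all 10 endothelial markers were below 0 (median -0.21), as were 9 of 10 macrophage markers (median -0.22). The part of these cell types in the Fabp5 values was not tested.

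Activation genes showed no call in TAC saline and 2 falls in TAC NRG against sham. Acsl1, the main long-chain acyl-CoA synthetase of the heart, stood at 637, 657, 699, 682 and 633 CPM in sham saline, 526, 636, 624, 551 and 516 in TAC saline and 543, 559, 414, 534 and 546 in TAC NRG. TAC saline met the sham range only through TAC saline 2, and TAC NRG 3 was well below the other 14 libraries. Acsl1 fell by 0.36 ± 0.08 (SE, adjusted p = 0.00446) in TAC NRG against sham, and the TAC saline difference was -0.22 ± 0.08 (adjusted p = 0.0986). Acot1, a cytosolic long-chain thioesterase, stood at 31.0, 41.3, 22.5, 30.1 and 21.7 CPM in sham saline, 17.5, 22.6, 18.5, 23.1 and 7.58 in TAC saline and 20.6, 16.6, 6.75, 16.9 and 15.2 in TAC NRG. TAC NRG 3 and TAC saline 5 were the lowest. Acot1 fell by 0.99 ± 0.27 (SE, adjusted p = 0.0136) in TAC NRG against sham, and its TAC saline difference was -0.77 ± 0.27 (adjusted p = 0.0692). The spread was wide at 26 to 156 reads per library. Acot2, a mitochondrial thioesterase, and Acot13, a small thioesterase of mitochondria, showed differences from sham of -0.19 ± 0.13 and -0.16 ± 0.08 in TAC saline and of -0.19 ± 0.13 and -0.04 ± 0.08 in TAC NRG, and none of these passed (limma).

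All 3 genes of lipid stores were below 0 in TAC saline against sham, and 2 passed the threshold. Plin5, a droplet coat protein that links droplets to mitochondria, stood at 92.2, 81.6, 99.05, 98.4 and 85.4 CPM in sham saline, 64.3, 74.9, 70.8, 79.5 and 55.9 in TAC saline and 67.6, 80.1, 68.9, 77.3 and 73.2 in TAC NRG. All 10 TAC libraries were below all sham libraries, with TAC saline 5 lowest. Plin5 fell by 0.41 ± 0.10 (SE, adjusted p = 0.00695) in TAC saline and fell by 0.31 ± 0.10 (SE, adjusted p = 0.0264) in TAC NRG. Pnpla2, the adipose triglyceride lipase that starts triglyceride breakdown, stood at 202, 258, 236, 253 and 216 CPM in sham saline, 152, 173, 191, 216 and 152 in TAC saline and 206, 202, 149, 196 and 236 in TAC NRG. TAC saline 4 reached the sham range, as did TAC NRG 1, 2 and 5. Pnpla2 fell by 0.41 ± 0.11 (SE, adjusted p = 0.0177) in TAC saline, and the TAC NRG difference from sham was -0.25 ± 0.11 (adjusted p = 0.133). Lipe, hormone-sensitive lipase, stood at 13.4, 21.5, 28.2, 19.7 and 18.4 CPM in sham saline, 9.98, 20.1, 9.87, 22.4 and 13.6 in TAC saline and 18.4, 21.7, 18.2, 20.2 and 24.1 in TAC NRG. All 3 groups overlapped, and TAC saline 1 and 3 were the lowest. The Lipe differences were -0.46 ± 0.21 (adjusted p = 0.168) in TAC saline against sham and 0.51 ± 0.21 (adjusted p = 0.238) in TAC NRG against TAC saline. Adipocyte markers other than Cidea and Car3, which heart muscle also expresses, summed to 0 to 24 reads per library. Adipoq, a defining one, held at most 4 reads and was at 0 in 7 libraries.

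Few of these genes passed the threshold between the TAC groups. In TAC NRG against TAC saline, 1 of 36 fell (Fabp5), 1 rose (Slc27a1) and 34 did not pass. Of all tested genes 1.3% passed, 0.626% lower and 0.672% higher. At an unadjusted p under 0.05 (limma) 7 of the 36 passed, against 1691 of all 11018 tested genes. All 5 blood transcripts listed (4 haemoglobin genes and Alas2) rose in this comparison, with a median of 1.03 and no overlap between the TAC groups, and their part in the results was not tested. The median over the 36 genes was 0.05, against -0.01 over all genes. Slc27a1, the fatty acid transport protein FATP1, stood at 75.5, 109, 93.9, 75.5 and 78.5 CPM in sham saline, 58.3, 65.6, 78.4, 85.7 and 55.4 in TAC saline and 85.3, 91.6, 87.0, 117 and 98.3 in TAC NRG. TAC saline 4 and TAC NRG 1, at nearly the same level, were the only overlap between the TAC groups. Slc27a1 rose by 0.49 ± 0.12 (SE, adjusted p = 0.0443) in TAC NRG against TAC saline, and its differences from sham were -0.34 ± 0.12 (adjusted p = 0.0817) in TAC saline and 0.15 ± 0.12 (adjusted p = 0.449) in TAC NRG. The call stood close to the threshold and held in 11 of 26 alternatives, where adjusted p ran from 0.022 to 0.301. It was lost when any of sham saline 1, 4 or 5, TAC saline 1, 2 or 5, or TAC NRG 4 or 5 was left out (adjusted p from 0.0539 to 0.154). It was also lost with either total-read scaling (0.0557 and 0.068), voom (0.0515), only the 2 groups compared in the fit (0.0729), array quality weights (0.0631), TAC NRG 4 and 5 left out together (0.301) and centring on the cardiomyocyte markers (0.0885). Hsd17b10 stood at 54.8, 45.0, 49.9, 44.7 and 43.5 CPM in sham saline, 34.9, 41.1, 45.5, 40.2 and 40.0 in TAC saline and 52.1, 46.4, 47.2, 46.7 and 71.8 in TAC NRG. Every TAC NRG library lay above every TAC saline library, with TAC NRG 5 far above the rest, a separation seen in 1.81% of all tested genes. Its difference of 0.37 ± 0.12 (adjusted p = 0.104) did not pass.

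The 20 genes that fell in TAC saline showed no call in TAC NRG against TAC saline. Their median difference there was 0.05, from -0.17 (Hadh) to 0.25 (Etfb), with 13 above 0 and 7 below. Their standard errors were 0.07 to 0.15, and their median in TAC saline against sham was -0.39. These genes were chosen on TAC saline libraries that also enter the difference. In TAC NRG against sham, 16 of 36 genes fell and 1 rose (Angptl4), where 16.1% of all tested genes passed, 7.39% lower and 8.74% higher. The median was -0.24, against -0.01 over all genes, and in 11 genes every TAC NRG library lay below every sham library, a separation seen in 5.45% of all genes. The count of 16 was 10 with total reads alone and 7 when centred on the cardiomyocyte markers, where 5 rose (Fabp3, Fabp4, Angptl4, Cpt1a and Acadl). The comparisons with sham share the sham libraries, so their lists are not independent. Cd36, Crat, Hadha, Hadhb, Decr1, Etfb and Pnpla2 passed only in TAC saline, and Lpl, Acsl1 and Acot1 only in TAC NRG. None of these 10 differed between the TAC groups past the threshold.

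Libraries of a group differed in how far the genes had moved. The median difference of the 36 genes from their sham means was -0.41, -0.25, -0.13, -0.22 and -0.53 in TAC saline 1 to 5, and -0.22, -0.19, -0.40, -0.21 and -0.13 in TAC NRG 1 to 5. Sham libraries lay between -0.06 and 0.10. TAC saline 1 and 5 were thus the lowest of their group and TAC NRG 3 of its own. By step, the spiral median was -0.54 in TAC saline 5 and -0.12 in TAC saline 3, and the electron transfer median -0.63 and -0.15, whereas the uptake median was 0.00 and -0.07. The 5 stress genes Nppa, Nppb, Myh7, Acta1 and Ankrd1 summed to 8303 and 8126 CPM in TAC saline 1 and 5 and to 4600 to 5265 CPM in the other 3. In TAC NRG they summed to 7768 to 11242 CPM, highest in TAC NRG 5, where the 36 genes had moved least. Postn, a marker of activated fibroblasts, was lowest within TAC saline in library 3 (94.7 CPM) and highest in library 5 (425 CPM), and within TAC NRG it was highest in library 3 (521 CPM). Of 10 fibroblast markers 6 rose and 1 fell in TAC saline. The part of these differences between libraries in the results was not tested.

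**Figure D3:**
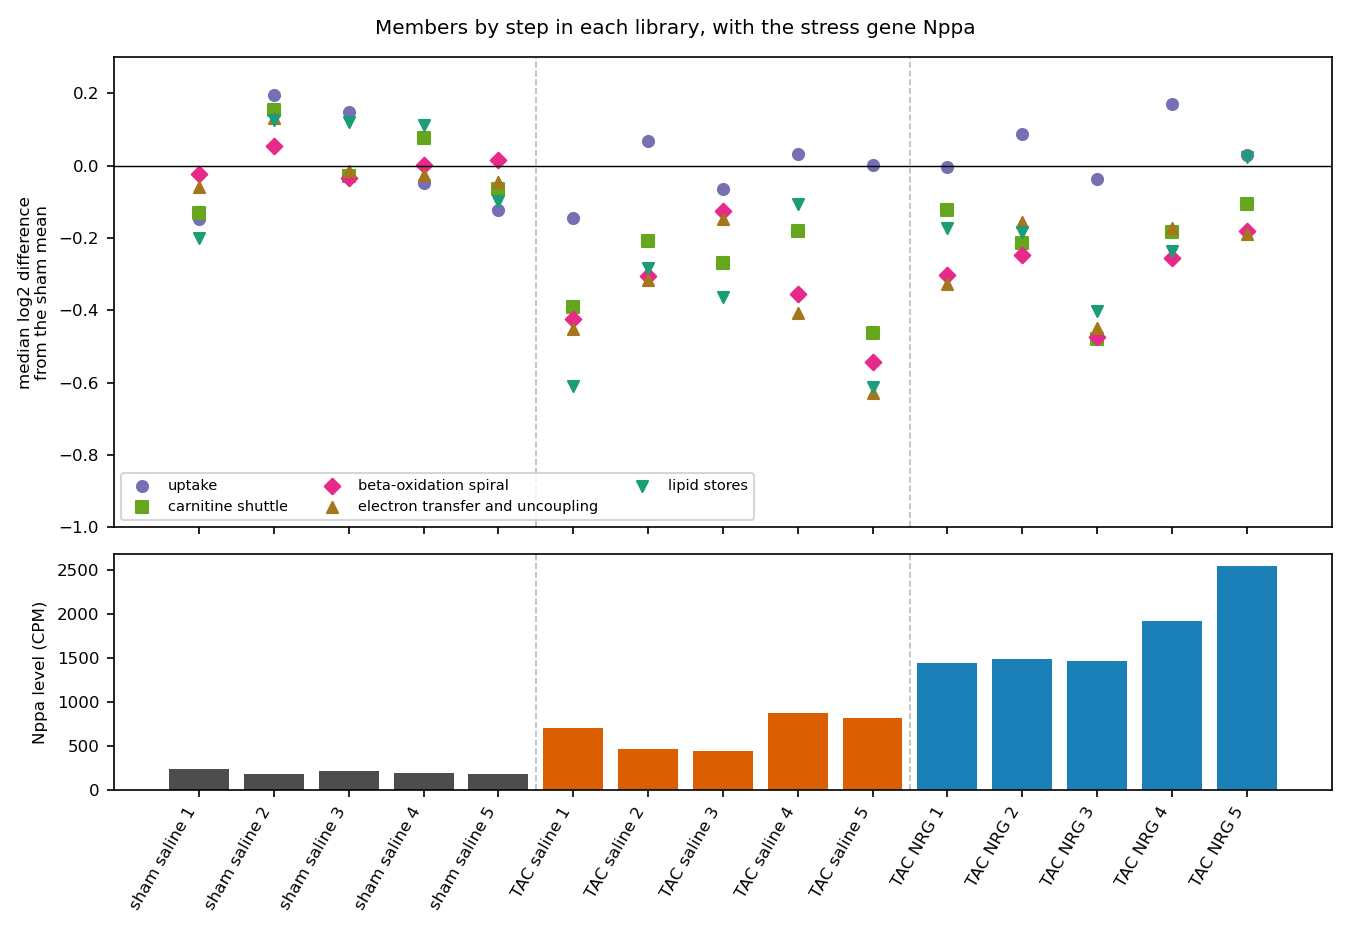
Upper panel: median log2 difference from the sham mean for the genes of 5 steps in each of the 15 libraries; lower panel: level of Nppa in the same libraries in CPM, coloured by group. All spiral and electron transfer medians of TAC libraries lie below those of sham libraries, while uptake medians overlap between groups, and Nppa is highest in the TAC NRG libraries.

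A few genes varied far more between libraries of a group than the rest, which was seen after their values were known. Angptl4, a secreted inhibitor of lipoprotein lipase, stood at 2.33, 13.1, 13.9, 3.20 and 4.04 CPM in sham saline, 5.06, 21.4, 4.67, 18.7 and 5.89 in TAC saline and 7.88, 19.2, 26.6, 19.7 and 14.8 in TAC NRG. Sham saline 2 and 3 and TAC saline 2 and 4 were several-fold above the other libraries of their groups. Angptl4 rose by 1.55 ± 0.46 (SE, adjusted p = 0.024) in TAC NRG against sham, and the difference between the TAC groups was 0.88 ± 0.46 (adjusted p = 0.375). Leaving out any of sham saline 1, 4 and 5 or TAC NRG 3 and 4 ended that call, as did leaving out TAC NRG 4 and 5 together (adjusted p = 0.0726) and a robust estimate of spread (0.119). Ucp3 stood at 11.4, 33.4, 26.6, 12.1 and 9.13 CPM in sham saline, 3.33, 28.6, 7.79, 23.4 and 5.89 in TAC saline and 7.33, 20.8, 15.4, 24.9 and 14.4 in TAC NRG. The same 4 saline libraries were high, and the differences were -0.69 ± 0.45 (adjusted p = 0.378) in TAC saline against sham and 0.61 ± 0.45 (adjusted p = 0.556) in TAC NRG against TAC saline. Pdk4, a kinase that shuts down pyruvate dehydrogenase and a known target of PPAR alpha, is not one of the 37 genes and stood at 95.1, 361, 263, 206 and 139 CPM in sham saline, 139.5, 244, 133, 328 and 93.4 in TAC saline and 104, 260.5, 203, 209.7 and 261 in TAC NRG. It was also highest in sham saline 2 and 3 and in TAC saline 2 and 4, and lowest of its group in TAC NRG 1, as Angptl4 and Ucp3 were. Acot1 did not share the low value in TAC NRG 1. Pdk4 came from a list of other PPAR alpha targets, of which 4 were tested. In TAC saline against sham 2 of these 4 fell and 0 rose, all 4 were below 0, and the median was -0.44. In TAC NRG against sham 1 of the 4 fell, with a median of -0.34. Over all tested genes 4.24% fell in the first comparison and 7.39% in the second.

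**Figure D4:**
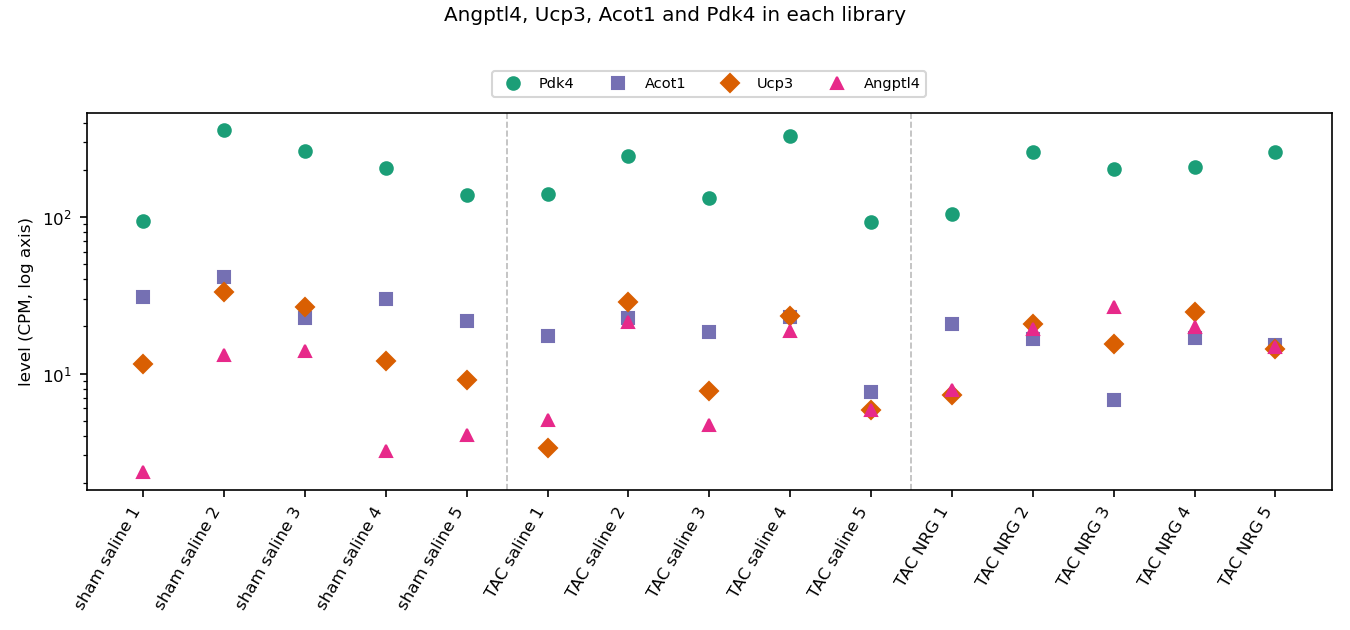
Level in CPM on a log axis of Pdk4, Acot1, Ucp3 and Angptl4 in each of the 15 libraries, with dashed lines between the groups. Pdk4, Ucp3 and Angptl4 are all high in sham saline 2 and 3 and in TAC saline 2 and 4.

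Other genes of the pathway also fell in TAC saline. Of 97 other genes listed, 86 were tested, and 24 fell and 1 rose in TAC saline against sham, and 24 fell and 2 rose in TAC NRG against sham (limma), with medians of -0.20 and -0.25. Over all tested genes 4.24% fell and 6.47% rose in the first comparison and 7.39% and 8.74% in the second, and these shares are also the background of the lists that follow. Mitochondrial oxidation of branched-chain and other acyl-CoAs had the most calls, with 8 of 13 genes lower in TAC saline. Acad12, an acyl-CoA dehydrogenase family member, fell by 0.72 ± 0.11 (SE, adjusted p = 0.000137), and Pccb, a propionyl-CoA carboxylase subunit, fell by 0.52 ± 0.11 (SE, adjusted p = 0.00326). Ivd, isovaleryl-CoA dehydrogenase of leucine breakdown, fell by 0.41 ± 0.08 (SE, adjusted p = 0.0017), and Mmut, methylmalonyl-CoA mutase, fell by 0.60 ± 0.10 (SE, adjusted p = 0.000134) in TAC NRG against sham. In peroxisomes 3 of 15 genes fell in TAC saline, among them Phyh, which starts alpha-oxidation of phytanic acid and fell by 0.39 ± 0.08 (SE, adjusted p = 0.00147).

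Among uptake genes outside the 37, Vldlr, a lipoprotein receptor, fell by 0.47 ± 0.11 (SE, adjusted p = 0.00836) in TAC saline and fell by 0.69 ± 0.11 (SE, adjusted p = 0.000142) in TAC NRG. Gpihbp1, the capillary anchor of lipoprotein lipase, rose by 0.31 ± 0.08 (SE, adjusted p = 0.0139) in TAC saline. Among thioesterases, Acot11 fell by 0.77 ± 0.18 (SE, adjusted p = 0.0049) and Acot9 rose by 0.47 ± 0.13 (SE, adjusted p = 0.0175) in TAC NRG against sham. Acacb, the mitochondrial acetyl-CoA carboxylase that makes the malonyl-CoA which Mlycd removes, fell by 0.46 ± 0.09 (SE, adjusted p = 0.00197) in TAC saline and fell by 0.46 ± 0.09 (SE, adjusted p = 0.00119) in TAC NRG. Both genes of that pair were lower in both TAC groups. Of 15 other droplet genes 3 fell in TAC saline, with Fitm2, a droplet formation protein, at -0.37 ± 0.09 and Dgat2, which makes triglyceride, at -0.33 ± 0.09.

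Of 18 regulators 4 fell in TAC saline and 6 fell and 1 rose in TAC NRG against sham. Klf15, a transcription factor of cardiac lipid metabolism, fell by 0.69 ± 0.15 (SE, adjusted p = 0.00359) in TAC saline and fell by 0.53 ± 0.15 (SE, adjusted p = 0.0168) in TAC NRG. Rxrg, a retinoid X receptor, fell by 0.49 ± 0.11 (SE, adjusted p = 0.00432) and fell by 0.61 ± 0.11 (SE, adjusted p = 0.000334). Ppargc1a, which encodes PGC-1 alpha, stood at 67.0, 59.2, 78.3, 70.0 and 86.3 CPM in sham saline, 48.1, 57.9, 69.1, 58.5 and 57.1 in TAC saline and 59.0, 43.2, 39.9, 28.6 and 30.3 in TAC NRG. The lowest libraries were in TAC NRG, whose range met that of TAC saline through TAC NRG 1 (59.0 CPM). TAC NRG 4 and 5, the shallowest libraries, were the lowest of all (28.6 and 30.3 CPM). Ppargc1a fell by 0.88 ± 0.15 (SE, adjusted p = 0.000193) in TAC NRG against sham, and its difference from TAC saline was -0.57 ± 0.15 (adjusted p = 0.055). The part of TAC NRG 4 and 5 in these Ppargc1a differences was not tested. Pparg, the PPAR form of adipose tissue, rose by 0.58 ± 0.18 (SE, adjusted p = 0.0259) in TAC NRG against sham at 15.4 ± 1.69 CPM against 10.4 ± 1.90 (SD, n = 5). Ppara itself held 5.14 to 13.3 CPM in sham saline, 6.80 to 11.9 in TAC saline and 0.663 to 9.83 in TAC NRG, with differences from sham of 0.08 ± 0.49 (adjusted p = 0.947) and -1.09 ± 0.49 (adjusted p = 0.133). Its lowest TAC NRG value lay near the floor, as a gene with 0 reads stood at 0.221 CPM in TAC NRG 5. The part of read depth in the TAC NRG difference of Ppara was not tested.

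**Figure D5:**
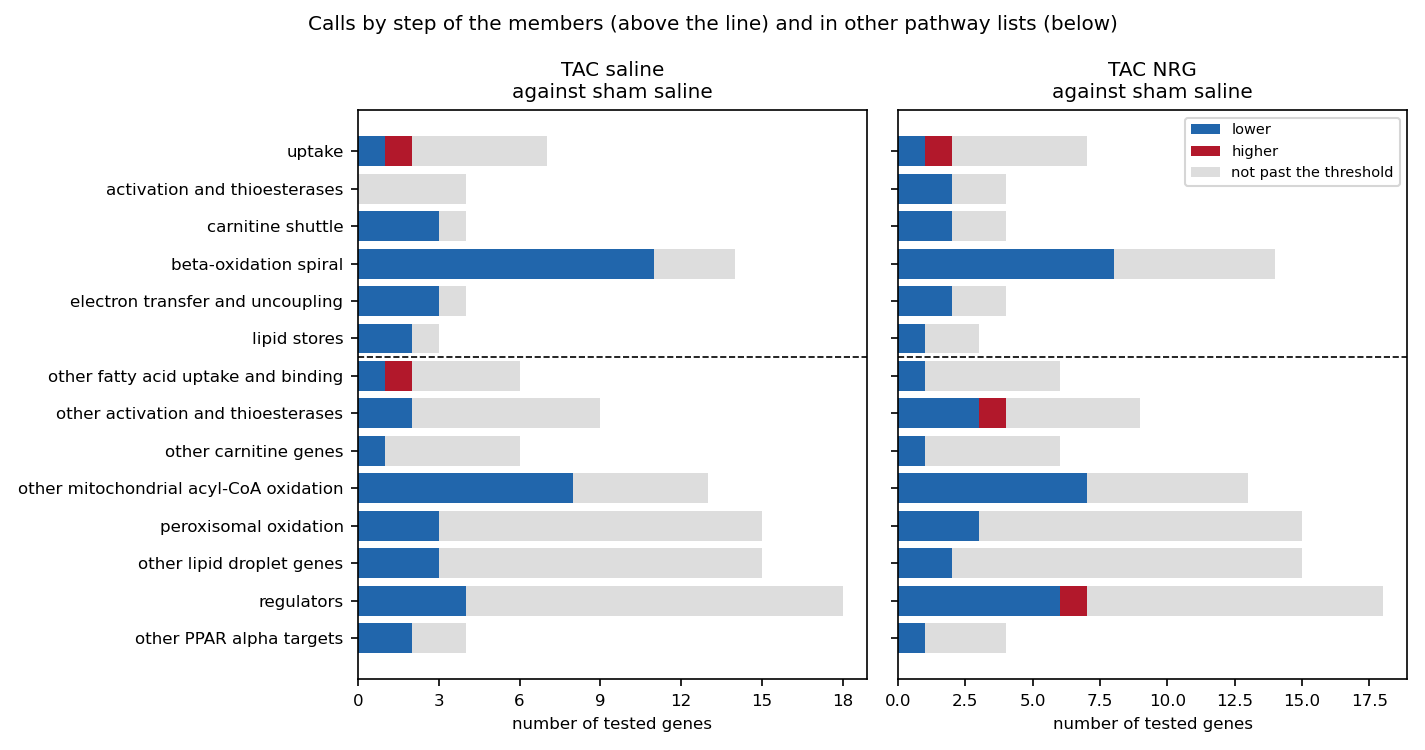
Number of tested genes that were lower, higher or not past the threshold for each step of the 37 genes (above the dashed line) and for each list of other pathway genes (below it), in TAC saline against sham saline and in TAC NRG against sham saline. The spiral, with 11 of 14 genes lower, and the other mitochondrial acyl-CoA oxidation genes, with 8 of 13, have the most falls in TAC saline.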

How the data were processed

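Per the labels' protocols, Tri Reagent was used to extract total RNA from frozen ventricle, and the MERCURIUS BRB-seq service prepared 3′-end libraries. Per the submitters' processing notes the genome build was GRCm39. The software for alignment and counting is not given in the sources used here. Each deposited table gives 1 library's log2 expression values by gene symbol, and all 15 are in batch 1, per the labels. The spacing of the authors' deposited log2 values gave the reads behind them: 98.9% to 99.5% per library lay within 0.05 of a whole read of a log2(reads + 0.5) scale with 1 factor per library, and 100% did so under 1000 reads. Printed CPM are deposited values out of the log, divided by 1000. No libraries of a group were duplicates (chi-square per degree of freedom 2.16 to 10.9). By this measure TAC NRG 4 and 5 were closer to each other (2.27) than to TAC NRG 1 to 3 (6.78 to 10.9). Likewise TAC saline 1 and 5 were closer to each other (2.30) than to TAC saline 2 to 4 (3.97 to 6.64). The reason for these pairs was not tested.

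A gene was tested if 5 libraries held 2.95 reads per M, equal to 10 reads at median depth, and all libraries together 15 reads. The deposited log2 values of the 15 libraries were fitted together in limma 3.58.1 (R 4.3.3) with a mean-dependent prior spread and no replicate block. Tests were two-sided with Benjamini-Hochberg adjustment over 11018 genes and a threshold of 0.05, and every adjusted p printed is limma's. Alternatives changed scaling, test, filter, groups in the fit, block, spread, library weights and libraries, and 1 centring was added after the data were seen. In each comparison 5 alternatives left out a library of the group not compared, which changes the estimated spread but not the difference. The 37 genes, the other lists and the tests were chosen with earlier results of these data known. Values in every library are given for genes past the threshold in any comparison or with the 3 largest rises or falls in TAC NRG against TAC saline where a result turns on them. From other lists at most 4 genes each were named, by size of change among those past the threshold, with exceptions that were named after their values were seen (Pdk4, Ppara and Pparg, and the genes under other observations). Shared transcript ends were searched as 50-base stretches in GENCODE vM21 transcripts, and promoters came from RefSeq on GRCm38.p6. Tables and figures used Python 3.11.15, pandas 2.3.3, numpy 2.4.6 and matplotlib 3.10.9.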

Additional observations from a re-analysis of the deposited data

Results flagged for a closer look

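Of 108 sets of 5 libraries (36 genes in 3 groups), 6 held a library whose gap to the others was large against the range of its group, and chance alone gives about 1 in 20, or 5.4 sets. Acsl1 was low in TAC NRG 3 at 414 CPM, against 534 to 559 CPM in the other 4 libraries of that group. Acot1 was low in the same library at 6.75 CPM, against 15.2 to 20.6 CPM. Acot1 was also low in TAC saline 5 at 7.58 CPM, against 17.5 to 23.1 CPM. Crat was low in sham saline 3 at 310.5 CPM, against 361 to 375 CPM. Hsd17b10 was high in TAC NRG 5 at 71.8 CPM, against 46.4 to 52.1 CPM. Etfa was high in sham saline 2 at 1120.0 CPM, against 1008 to 1022 CPM.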

How the results depend on the processing

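For TAC saline against sham saline, total reads as the only scaling gave 11 lower and 2 higher members of the set of 36 genes, while a fit to only the groups compared and array quality weights each gave 2 higher. Centring on the cardiomyocyte markers gave 5 lower, 4 higher and 2212 calls over all genes, and there Acadvl turned to 0.00926 (adjusted p = 0.937). Leaving out each library gave 9 to 22 lower, 1 higher and 636 to 1495 calls over all genes. For TAC NRG against TAC saline, the 1 rise became 0 with either total-read scaling, voom, only the groups compared, array weights, TAC NRG 4 and 5 left out, or marker centring. The 1 fall became 0 with only the groups compared and without TAC NRG 4 and 5. Calls over all genes were 143, and 77 with only the groups compared, 93 with array weights, 39 without TAC NRG 4 and 5 and 89 with marker centring. Leaving out each library gave 0 to 1 lower, 0 to 1 higher and 58 to 229 calls over all genes. The Acot1 difference ranged from -0.5054 without TAC saline 5 to 0.04957 without TAC NRG 3, where its sign turned (adjusted p = 0.94). For TAC NRG against sham saline, total reads gave 10 lower and marker centring 7 lower and 5 higher. Higher calls were 2 with only the groups compared, and 0 with robust spread or without TAC NRG 4 and 5. Leaving out each library gave 12 to 18 lower, 0 to 1 higher and 1338 to 1854 calls over all genes. Deviations of same-numbered libraries correlated between -0.246 and 0.0795 over 15 pairs, and 2 of 15 libraries correlated best with their own number. These values show no pairing of the samples by number, but weak correlations cannot exclude one. With the replicate block, calls over all genes were 1049, 111 and 1645, with 19, 1 and 14 members lower and 1 higher in each comparison. Low read counts limit Angptl4 (10 to 110 reads per library), Ucp3 (11 to 126) and Acot1 (26 to 156), and Cpt1b held too few reads to be tested.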

Other observations

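Cidea, a lipid droplet protein listed here as an adipocyte marker and also expressed in heart muscle, rose in TAC NRG. It stood at 32.4 ± 1.05 CPM in sham saline, 37.9 ± 2.63 in TAC saline and 52.4 ± 9.75 in TAC NRG (SD, n = 5 each), and it rose by 0.45 ± 0.11 in TAC NRG against TAC saline (SE, limma adjusted p = 0.0391). No TAC NRG library overlapped with TAC saline. Like the other genes of this paragraph, it was singled out after its values were seen. Ncor1 and Ppargc1b, a corepressor and a coactivator of nuclear receptors, fell by 0.61 ± 0.16 (adjusted p = 0.00956) and 0.74 ± 0.24 (adjusted p = 0.0349) in TAC NRG against sham saline, with wide ranges in TAC NRG of 35.1 to 82.9 CPM and 9.52 to 30.4 CPM. Of mitochondrially oxidised amino acid and odd-chain genes, Mcee and Pcca fell by 0.41 ± 0.10 (adjusted p = 0.0105) and 0.44 ± 0.12 (adjusted p = 0.0224) in TAC saline against sham saline.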
